A study of Bos taurus with 36 samples.

Results

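The Toll-like receptor to NF-kappaB cascade is described here in bovine liver as a set of 46 genes, listed by their role and not by their change: 12 receptors, 21 adaptors and kinases, 5 NF-kappaB subunits and 8 inhibitors. Of these, 31 genes were measured, through 47 of the 24128 probe sets of the Affymetrix Bovine Genome Array, each of which names that gene alone. The measured genes are 7 receptors, 15 adaptors and kinases, 3 subunits and 6 inhibitors. No probe set naming TLR1, TLR7, TLR8, TLR10, LY96, TIRAP, TICAM1, IRAK2, TRAF2, MAP3K7, TBK1, REL, RELB, TNFAIP3 or IRAK3 was found, so they were not analysed here. The probe set read as TLR6 belongs to a gene record that also carries TLR1 as an older name, and which of these close paralogs it measures is uncertain.

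Liver biopsies came from 8 healthy Holstein-Friesian cows between 9 and 12 weeks of their first lactation. At time 0 each cow received 200 µg of E. coli lipopolysaccharide (LPS) into the right front gland of the udder, and the left front gland received 10 ml of 0.9% NaCl. All 8 cows were sampled at -22 h, before LPS, and at 9 and 48 h after it, and cows 1, 3, 7 and 8 also at 3, 6 and 12 h, with 1 cow and hour on each of the 36 arrays. No array came from a cow without LPS, so on these arrays the effects of LPS, of the hour and of repeated biopsy cannot be told apart. The paper reports a control study of cows given saline, in which biopsy altered neither clinical measurements nor the expression of some chosen genes. Those cows were not measured on arrays.

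Toll-like receptors are membrane proteins that recognise microbial molecules. TLR4 recognises LPS together with its partner LY96 (MD-2), after LBP in plasma and CD14 on the cell surface have passed LPS on, while TLR2 recognises bacterial lipoproteins. The adaptor MYD88 and the IRAK kinases carry the signal to TRAF6, which activates a kinase complex, and the IKK complex then marks the IkappaB inhibitors for degradation. This frees NF-kappaB dimers to enter the nucleus, where they induce, among many inflammatory genes, several of their own inhibitors. In liver, Kupffer cells, endothelium and hepatocytes all carry parts of this cascade.

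The array measured the amount of transcript as a log2 value per probe set, normalised by the authors with GCRMA, and array medians lay between 4.15 and 4.38. A hybridisation signal has no absolute scale, so the levels of different genes cannot be ranked, and values were compared between hours of 1 probe set. Brightness served only to choose what is shown: where several probe sets name a gene, the brightest on average gives its value. A change at an hour is the difference from the mean at -22 h on the log2 scale, with its standard error (SE) from a limma model of all arrays, and a gene was called higher or lower when its Benjamini-Hochberg-adjusted p, over all probe sets, was below 0.05. The cows are separate animals, and their number limits the precision. Values under 3 are near the scale's lower end (33.1% of probe sets had every hourly mean there), so a rise from such a level is a lower bound, and the true size of a fall to it is not seen. Of the arrays, 2 stood apart from the others of their hour along the mean 9 h change of all probe sets, set to 100%: that of cow 2 at 48 h lay at 24.8% (the other cows between 1.10 and 4.28%), and that of cow 1 at -22 h at 10.3% (the others between -3.08 and 2.52%).

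Most measured members of the cascade rose after LPS, and by 48 h most were near or slightly below the level before it. At 3 h the members that rose were mainly inhibitors (5 of 6) and subunits (3 of 3), while 2 of 15 adaptors and kinases and 1 of 7 receptors were higher, and at 6 h 9 of the 15 and 3 of the 7 were. At 3 h 11 of the 31 genes were higher than at -22 h and 1 was lower, against 4.47% higher and 2.57% lower among the 9156 genes measured on the array. At 6 h 21 were higher and 3 lower, where 26.0% and 29.3% of all genes were. At 9 h the counts were 22 and 2, against 36.6% and 28.4%, and at 12 h they were 19 and 3, against 30.9% and 22.2%. The members' median log2 change was 0.37 at 3 h, 1.35 at 6 h, 0.93 at 9 h and 0.68 at 12 h, while the median over all genes lay between -0.02 and 0.04 at these hours. In all, 26 members were higher at 1 or more hours and 11 were lower at 1 or more, 9 of them both. TLR3, TLR9 and TICAM2 were called at no hour.

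**Figure D1:**
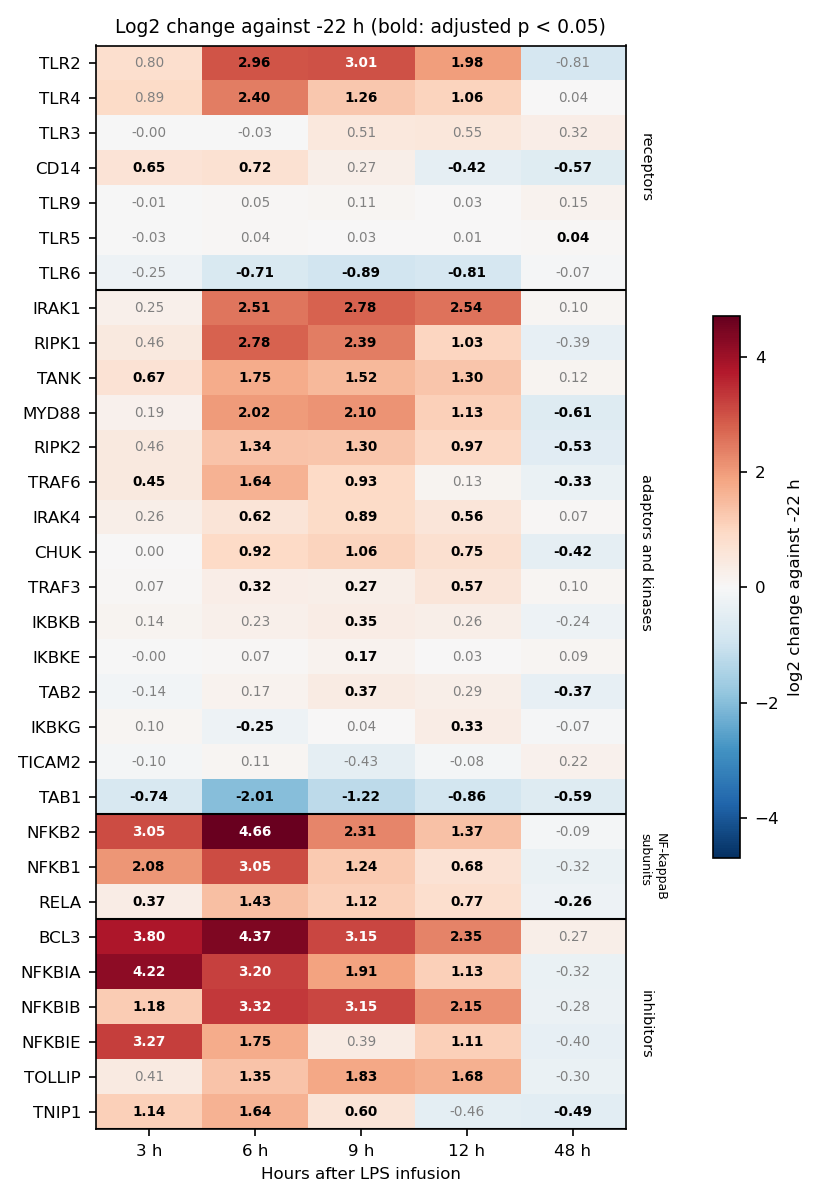
Log2 change of each of the 31 measured genes (rows, grouped by role) against -22 h at 3, 6, 9, 12 and 48 h (columns), with the value printed in each cell and in bold where the adjusted p was below 0.05. Inhibitors and subunits hold the largest values at 3 h, such as 4.22 for NFKBIA, and TAB1 is lower in every column.

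**Figure D2:**
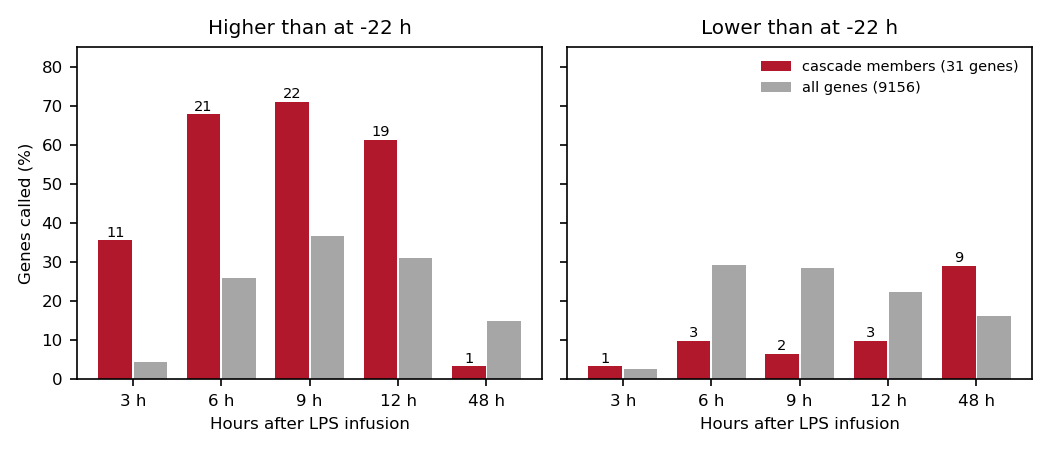
Share of genes called higher (left) or lower (right) than at -22 h, in percent, for the 31 measured members of the cascade (red, with the number of genes above each bar) and for all 9156 genes (grey). The red bars stand above the grey ones on the left from 3 to 12 h, and at 48 h the higher share is below that of all genes.

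Among the receptors, TLR2 and TLR4 rose, CD14 rose early and then fell, and TLR6 fell. TLR2 had log2 values of 4.81, 6.37 and 7.05 (lowest, median and highest of 8 cows) at -22 h. At 3 h the values were 7.11 in cow 1, 7.30 in cow 3, 6.67 in cow 7 and 7.07 in cow 8, which overlap those at -22 h. At 6 h cows 1, 3, 7 and 8 had 9.70, 9.85, 8.90 and 8.32, and at 9 h the 8 cows ran from 8.25 over a median of 9.54 to 9.78. All cows at both hours lay above every value at -22 h. At 12 h the 4 cows, in the same order, had 8.57, 8.54, 8.26 and 7.50, still above the range at -22 h, and at 48 h the values were 4.51, 5.39 and 6.98. The log2 change of TLR2 was 0.80 at 3 h (SE 0.40, adjusted p = 0.30), 2.96 at 6 h (SE 0.40, adjusted p = 1.8e-07), 3.01 at 9 h (SE 0.32, adjusted p = 1.3e-09) and 1.98 at 12 h (SE 0.40, adjusted p = 9.6e-05), with every cow higher. At 48 h it was -0.81 (SE 0.32, adjusted p = 0.056), with 1 of 8 cows higher. With the cow as a fixed or random block this last value was called (adjusted p = 0.034 and 0.036), and it was also called, between -1.03 and -0.96, in each of 3 settings without an array or a cow.

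TLR4, the receptor of LPS itself, lay near the lower end of the scale before LPS, at 2.39, 2.96 and 2.99 (lowest, median and highest). At 3 h the cows differed widely, with 2.87 in cow 1, 5.08 in cow 3, 3.40 in cow 7 and 3.69 in cow 8. At 6 h the same cows had 4.33, 5.98, 5.46 and 5.32, all above the range at -22 h. The 8 cows at 9 h ran from 2.97 over 4.14 to 5.09, and at 12 h the 4 cows had 2.96, 4.53, 5.28 and 2.98, so at these hours some cows were back at the level before LPS and others were not. By 48 h the cows had 2.35, 2.92 and 3.42. The mean change was at least 2.40 at 6 h (SE 0.41, adjusted p = 9.1e-06) and at least 1.26 at 9 h (SE 0.33, adjusted p = 0.0018). All 4 cows at 6 h and all 8 at 9 h were higher, but by unequal amounts. The change within a cow ran from 1.49 to 3.03 at 6 h and from 0.13 to 2.14 at 9 h. At 48 h the mean change was 0.04 (SE 0.33, adjusted p = 0.95). In the 4 cows that have all hours, the change at 9 h was 0.65 (SE 0.49, adjusted p = 0.28) and was not called. The change of 1.06 at 12 h (SE 0.41, adjusted p = 0.036) was not called without cow 3, where it was 0.87 (adjusted p = 0.13), without cow 7, where it was 0.63 (adjusted p = 0.34), or in those 4 cows (1.15, adjusted p = 0.079).

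CD14, the surface protein that hands LPS to TLR4, had values of 11.22, 11.70 and 11.99 at -22 h. At 3 h it stood at 12.40, 12.37, 12.16 and 12.39 in cows 1, 3, 7 and 8, and at 6 h at 12.35, 12.44, 12.34 and 12.44. Both hours lay above every value before LPS. At 9 h the range was 11.78 to 12.09 with a median of 11.93. At 12 h the 4 cows had 11.09, 11.09, 11.46 and 11.35, and at 48 h the values were 10.57, 11.09 and 11.58, which overlap those at -22 h from below. Its change was 0.65 at 3 h (SE 0.16, adjusted p = 0.0072) and 0.72 at 6 h (SE 0.16, adjusted p = 0.00028), higher in 4 of 4 cows, and -0.57 at 48 h (SE 0.13, adjusted p = 0.0016), lower in 7 of 8. At 9 h it was 0.27 (SE 0.13, adjusted p = 0.067), which was called with the cow as a block. The fall of 0.42 on the log2 scale at 12 h (SE 0.16, adjusted p = 0.028) was not called without cow 1 (adjusted p = 0.20), cow 3 (adjusted p = 0.16) or cow 8 (adjusted p = 0.070), nor without the array of cow 1 at -22 h (adjusted p = 0.055). The other probe set of CD14 was called at none of the 5 hours, with 0.69 at 3 h, 0.45 at 6 h and -0.15 at 48 h. With an average over the gene's probe sets, the calls at 12 and 48 h were lost.

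TLR6, which pairs with TLR2 at the cell surface, went the other way. Its values were 6.69, 7.09 and 7.50 at -22 h, then 6.72, 6.83, 6.97 and 6.77 in cows 1, 3, 7 and 8 at 3 h and 6.15, 6.48, 6.45 and 6.38 at 6 h. At 9 h they ran from 5.61 over 6.17 to 7.09, at 12 h the 4 cows had 6.17, 6.06, 6.65 and 6.18, and at 48 h the range was 6.72 to 7.29 around a median of 7.02. The values at 6 and 12 h lay below all those at -22 h, and those at 48 h were back among them. TLR6 changed by -0.71 at 6 h (SE 0.18, adjusted p = 0.0012), -0.89 at 9 h (SE 0.14, adjusted p = 2.8e-06) and -0.81 at 12 h (SE 0.18, adjusted p = 0.00029), lower in every cow. TLR3, a receptor of double-stranded RNA inside the cell, passed the threshold at no hour without a block, with changes between -0.03 and 0.55. With the cow as a fixed block its change of 0.51 at 9 h was called (adjusted p = 0.024), as was 0.66 at that hour without cow 3 (adjusted p = 0.0093). With array weights it was called at 9 and 12 h, while the random block made no call. Without a block, the other probe sets of TLR3 were at -0.05 to 0.005 at 9 h and -0.05 to -0.03 at 12 h, not called. TLR5 and TLR9, receptors of flagellin and of bacterial DNA, had every hourly mean under 3, so the array gave no usable measure of a change for them. The only call among their values, a change of 0.04 for TLR5 at 48 h, was lost in 7 settings that left out a cow or an array.

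The biopsies hold several cell types, and in such samples fewer cells of a type and less RNA per cell cannot be told apart. Of 10 measured markers of Kupffer cells and macrophages, cells that carry CD14 and TLR4, none was higher and 7 were lower at each of 6, 9 and 12 h, where 29.3%, 28.4% and 22.2% of all genes were lower. The log2 of their summed values went from 14.17 to 15.00 over the cows at -22 h to 13.20 to 14.06 at 12 h. Such a sum adds unlogged signals, so the probe sets with the highest signal weigh most and it does not stand for the whole list. Over all arrays CD5L had a mean log2 value of 13.50, and C1QA, the next, 11.29. CD5L, whose probe set was the brightest, changed by -0.93 at 9 h (SE 0.16), and MSR1, a scavenger receptor, by -3.21 at 6 h (SE 0.31). Of 8 markers of neutrophils, which also carry TLR2 and CD14, 3 were higher at 3 and 6 h, 5 at 9 h and 4 at 12 and 48 h. Of all genes 4.47%, 26.0%, 36.6%, 30.9% and 15.0% were higher at 3, 6, 9, 12 and 48 h, and the 3 markers at 6 h are 37.5% of the list. The summed levels of these markers were 7.74 to 8.73 at -22 h and 12.45 to 15.02 at 9 h. Their highest means over all arrays were 10.23 for S100A8 and 9.69 for S100A12. S100A9, a calgranulin, changed by 6.43 at 9 h (SE 0.35) and LTF, lactoferrin of granules, by 0.82 (SE 0.47, not called). The granule genes ELANE, MMP9 and MPO lay near the lower end at every hour, and the 5 markers called at 9 h include at least 1 of them. Of 8 endothelial markers 4, 5 and 4 were lower at 6, 9 and 12 h and 1, 1 and 0 higher, among them PECAM1 with -1.90 at 6 h (SE 0.22) and TEK with -1.47 at 9 h (SE 0.17). Of 10 hepatocyte markers 6, 7 and 6 were lower at these hours, with -2.40 for HNF4A at 9 h (SE 0.25) and -0.06 for albumin, ALB (SE 0.04, not called), and 1 was higher at each, the fibrinogen gene FGB. Their summed level ran from 18.16 to 18.51 at -22 h and from 18.05 to 18.21 at 9 h. Of 12 markers of T and natural killer cells 1 was higher at 6 h, GNLY with 2.08 (SE 0.63), and 2 and 4 were lower at 9 and 12 h, which is 16.7% and 33.3% of the list, with CD3E, the brightest of them, at -0.04 at 9 h (SE 0.25). Among 5 B and plasma cell markers BLNK alone was called, at -1.54 at 6 h (SE 0.40) and -1.75 at 9 h (SE 0.33), and JCHAIN was at -0.64 at 9 h (SE 0.36, not called). Of 4 bile duct markers EPCAM was lower at 9 h, at -2.06 (SE 0.47), and CFTR higher from 6 to 12 h. At 48 h, where 16.2% of all genes were lower, 3 of the 10 macrophage markers (AIF1, MSR1 and TIMD4, median of the list -0.23) and 3 of the 8 endothelial markers (CDH5, ERG and TEK, median -0.42) were still lower. The part of these shifts in the changes of the cascade was not tested.

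**Figure D3:**
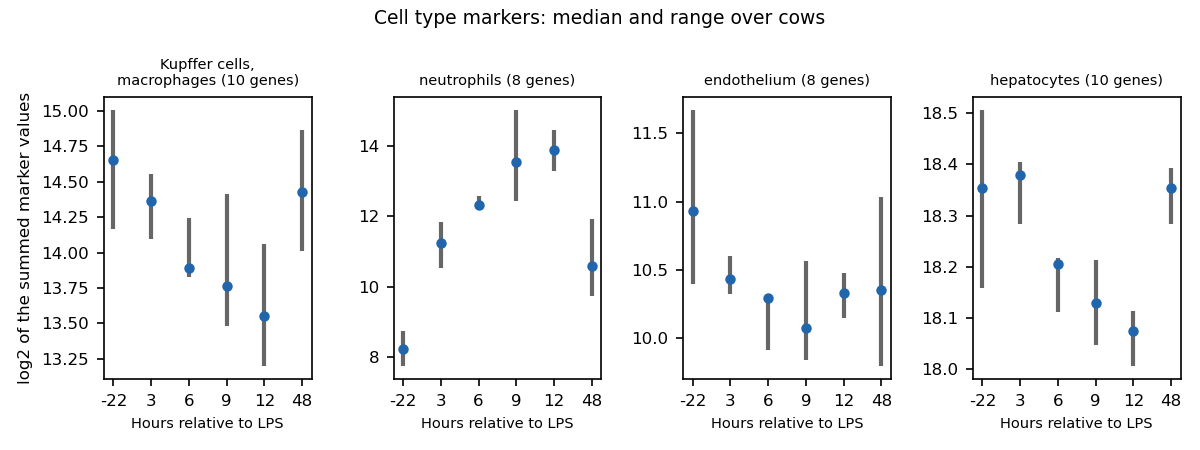
Log2 of the summed values of the measured markers of 4 cell types at each hour relative to LPS (x axis), with the median over cows as a point and the range over cows as a bar. The sums add unlogged signals, so the probe sets with the highest signal weigh most. The median of the macrophage sum is lowest at 12 h and that of the neutrophil sum highest at 12 h, at 13.89 against 8.22 at -22 h.

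Of the 15 measured adaptors and kinases, 2 were higher and 1 was lower at 3 h, 9 and 2 at 6 h, 12 and 1 at 9 h, and 9 and 1 at 12 h. Among all genes 4.47%, 26.0%, 36.6% and 30.9% were higher at these hours, and 2.57%, 29.3%, 28.4% and 22.2% were lower. MYD88, IRAK1 and RIPK1 had the largest changes among them. MYD88, the adaptor of most Toll-like receptors and of the IL-1 receptor, had values of 6.97, 7.23 and 7.68 (lowest, median and highest of 8 cows) at -22 h. At 3 h cows 1, 3, 7 and 8 had 7.56, 7.63, 7.37 and 7.37, inside that range. They reached 9.80, 9.21, 9.22 and 9.04 at 6 h, the 8 cows had 8.68, 9.62 and 9.74 at 9 h, and the 4 cows had 8.65, 8.50, 8.82 and 7.72 at 12 h. All these values lay above the range before LPS. The change was 0.19 at 3 h (SE 0.19, adjusted p = 0.62), 2.02 at 6 h (SE 0.19, adjusted p = 1.9e-10), 2.10 at 9 h (SE 0.16, adjusted p = 2.7e-13) and 1.13 at 12 h (SE 0.19, adjusted p = 9.4e-06). At 48 h MYD88 ran from 6.36 over 6.72 to 7.20 and was lower than before LPS in 8 of 8 cows, with a change of -0.61 (SE 0.16, adjusted p = 0.0058). In the 4 cows that have all hours this call was lost (-0.82, adjusted p = 0.051).

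IRAK1, a kinase recruited by MYD88, stayed high from 6 to 12 h. It had 6.69, 6.90 and 7.14 at -22 h, and at 3 h 7.54, 6.95, 7.13 and 6.97 in cows 1, 3, 7 and 8. At 6 h these cows had 9.56, 9.37, 9.47 and 9.22, at 9 h the 8 cows had 9.32, 9.69 and 9.96, and at 12 h the 4 cows had 9.33, 9.63, 9.38 and 9.41. The lowest of these lies more than 2 log2 units above the highest value before LPS, and the cows differ little among themselves. Its change was 2.51 at 6 h (SE 0.11, adjusted p = 4.0e-18), 2.78 at 9 h (SE 0.09, adjusted p = 2.4e-22) and 2.54 at 12 h (SE 0.11, adjusted p = 9.8e-19), and at 48 h it was back at 6.68 to 7.25, a change of 0.10 (SE 0.09, adjusted p = 0.37) that was called after median centring (0.24). IRAK4, the kinase that acts before IRAK1, rose less, by 0.62 at 6 h (SE 0.09), 0.89 at 9 h (SE 0.07) and 0.56 at 12 h (SE 0.09), in every cow.

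RIPK1, a kinase shared with the TNF receptor and TLR3 pathways, had its highest mean at 6 h, but its change from 6 to 9 h did not pass the test. Its values were 8.15, 8.33 and 8.83 at -22 h, and 8.93, 9.12, 8.83 and 8.65 in cows 1, 3, 7 and 8 at 3 h. They rose to 11.25, 11.37, 11.20 and 10.95 at 6 h, and the 8 cows at 9 h had 10.18, 10.94 and 11.20. Both hours were far above the range before LPS, whereas at 12 h cow 8, with 8.59, had come back into it, and cows 1, 3 and 7 had 9.44, 9.81 and 9.94. The change was 0.46 at 3 h (SE 0.21, adjusted p = 0.24), 2.78 at 6 h (SE 0.21, adjusted p = 1.3e-12), 2.39 at 9 h (SE 0.17, adjusted p = 1.1e-13) and 1.03 at 12 h (SE 0.21, adjusted p = 0.00013). At 48 h RIPK1 ran from 7.72 over 7.87 to 8.84, a change of -0.39 (SE 0.17, adjusted p = 0.078) that was called without cow 2 or its array at 48 h (adjusted p between 0.028 and 0.045).

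Other adaptors and kinases rose at the same hours. TANK, a scaffold of TRAF and IKK-related kinases, changed by 0.67 at 3 h (SE 0.17), 1.75 at 6 h (SE 0.17), 1.52 at 9 h (SE 0.14) and 1.30 at 12 h (SE 0.17). RIPK2, the kinase of the NOD receptors, changed by 1.34 at 6 h (SE 0.14), 1.30 at 9 h (SE 0.12) and 0.97 at 12 h (SE 0.14). TRAF6, the ubiquitin ligase next to the IRAK kinases, stood at 1.64 at 6 h (SE 0.13) and 0.93 at 9 h (SE 0.11). At 12 h it was at 0.13 (SE 0.13, not called), while its other probe set was called higher, at 0.42. Of the IKK complex, which marks the inhibitors for degradation, the kinase CHUK (IKKalpha) rose by 0.92 at 6 h (SE 0.10), 1.06 at 9 h (SE 0.08) and 0.75 at 12 h (SE 0.10). The kinase IKBKB (IKKbeta) was called at 9 h only, at 0.35 (adjusted p = 0.033), and its scaffold IKBKG (NEMO) was at -0.25 at 6 h and 0.33 at 12 h. The calls of these small changes did not all hold when a cow or an array was left out, although their direction did. The call of IKBKB was lost in 4 settings without a cow or an array (adjusted p up to 0.10), that of IKBKG at 6 h in 4 (up to 0.076) and that at 12 h without cow 8 (adjusted p = 0.13). In the 4 settings IKBKB stayed between 0.29 and 0.35, and IKBKG at 6 h between -0.25 and -0.20. At 3 h the call of TANK was lost without cow 7 or cow 8 (adjusted p up to 0.077) and that of TRAF6, a change of 0.45, in 5 settings without a cow or an array (up to 0.21) and with the cow as a fixed block (adjusted p = 0.076). TAB2, which links ubiquitin chains to the kinase MAP3K7, was at 0.37 at 9 h, TRAF3, an adaptor of the interferon branch, at 0.32, 0.27 and 0.57 at 6, 9 and 12 h, and IKBKE at 0.17 at 9 h. The means of TRAF3 lay under 3 at all hours but 12 h and those of IKBKE between 3.00 and 3.17, and the calls of TRAF3 at 6 and 9 h were lost in 8 and 6 settings without a cow or an array, and that at 6 h also with the cow as a fixed block (adjusted p = 0.13). In the 4 cows that have all hours, the calls of IKBKB, IKBKG, TAB2 and IKBKE at these hours, of TRAF3 at 6 and 9 h and of TANK and TRAF6 at 3 h were all lost. The change of TRAF3 at 12 h came mostly from cows 1 and 3, with 3.70 and 3.67. Cows 7 and 8 had 2.77 and 2.81, just above the range of 2.52 to 2.75 at -22 h. The other probe set of TRAF3 changed by 0.01 at 12 h and was not called.

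TAB1, the activator of the kinase MAP3K7, was lower at all 5 hours and in every cow, and is named here after its values were seen. It had 4.61, 4.80 and 5.24 at -22 h. Cows 1, 3, 7 and 8 had 3.82, 4.29, 4.24 and 4.08 at 3 h, and 2.51, 3.21, 2.79 and 2.82 at 6 h. At 9 h the 8 cows had 3.31, 3.60 and 3.98, and at 12 h the 4 cows had 3.76, 4.06, 3.81 and 4.31. At 48 h the range was 3.87 to 4.47 around a median of 4.30, still below every value at -22 h, so the groups did not overlap at any hour. The change was -0.74 at 3 h (SE 0.14, adjusted p = 0.00039), -2.01 at 6 h (SE 0.14, adjusted p = 9.4e-14), where the values approach the scale's lower end, -1.22 at 9 h (SE 0.11), -0.86 at 12 h (SE 0.14) and -0.59 at 48 h (SE 0.11, adjusted p = 0.00026). With the 4 cows that have all hours, the call at 48 h was lost.

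All 3 measured NF-kappaB subunits were higher at 3, 6, 9 and 12 h and highest at 6 h. Among all genes 4.47%, 26.0%, 36.6% and 30.9% were higher at these hours. NFKB1 encodes p105, the precursor of p50. Its values were 6.70, 6.94 and 7.23 at -22 h, and 9.18, 8.97, 9.21 and 8.98 in cows 1, 3, 7 and 8 at 3 h. At 6 h the same cows had 9.42, 10.85, 10.29 and 9.65, and the 8 cows at 9 h had 7.58, 8.15 and 8.76. Through 9 h no cow overlapped the range before LPS. At 12 h the cows had 7.31, 7.64, 8.89 and 6.90, of which that of cow 8 lies inside it. The change was 2.08 at 3 h (SE 0.25, adjusted p = 3.2e-07), 3.05 at 6 h (SE 0.25, adjusted p = 6.8e-12) and 1.24 at 9 h (SE 0.20, adjusted p = 3.5e-06). The change of 0.68 at 12 h (SE 0.25, adjusted p = 0.026) rested on cow 7 and was 0.24 without it (adjusted p = 0.52). It was also lost in the 4 cows that have all hours (adjusted p = 0.15). By 48 h NFKB1 had 6.53, 6.60 and 6.96, a change of -0.32 (SE 0.20, adjusted p = 0.22).

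NFKB2 encodes p100, the precursor of p52 and itself an inhibitor before it is processed, and it had the largest change of any member at 6 h. Before LPS the cows had 2.43, 3.67 and 4.82. Cows 1, 3, 7 and 8 had 6.80, 6.94, 6.31 and 6.46 at 3 h, and 7.89, 8.99, 8.13 and 7.92 at 6 h. The 8 cows ran from 4.92 over 5.70 to 7.05 at 9 h, and at 12 h the 4 cows had 4.60, 5.23, 6.24 and 3.71. Values at 3, 6 and 9 h lay above the whole range at -22 h, and those at 12 h overlapped it. The change was 3.05 at 3 h (SE 0.42, adjusted p = 3.9e-06), 4.66 at 6 h (SE 0.42, adjusted p = 5.0e-11), 2.31 at 9 h (SE 0.34, adjusted p = 5.7e-07) and 1.37 at 12 h (SE 0.42, adjusted p = 0.0073). The call at 12 h was lost in the 4 cows that have all hours, at 1.19 (adjusted p = 0.10). At 48 h NFKB2 was at 2.83, 3.31 and 4.76, a change of -0.09 (SE 0.34, adjusted p = 0.86).

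RELA, the p65 subunit that activates transcription, moved over a narrower range. It had 7.73, 7.85 and 8.19 at -22 h, and 8.49, 8.21, 8.17 and 8.11 in cows 1, 3, 7 and 8 at 3 h. At 6 h these cows had 9.19, 9.56, 9.37 and 9.09, at 9 h the 8 cows had 8.71, 9.03 and 9.16, and at 12 h the 4 cows had 8.63, 8.75, 8.81 and 8.40. From 6 to 12 h no cow overlapped the range before LPS. The change was 1.43 at 6 h (SE 0.10, adjusted p = 2.5e-13), 1.12 at 9 h (SE 0.08, adjusted p = 1.8e-13) and 0.77 at 12 h (SE 0.10, adjusted p = 9.3e-08). At 3 h it was 0.37 (SE 0.10, adjusted p = 0.021), a call lost without cow 1, 3, 4 or 7, each with an adjusted p between 0.052 and 0.058, and in the 4 cows that have all hours (0.28, adjusted p = 0.39). At 48 h RELA ran from 7.34 over 7.65 to 7.82, lower in 8 of 8 cows by 0.26 on average (SE 0.08, adjusted p = 0.025). That call was lost without cow 1 (adjusted p up to 0.15), in the 4 cows (adjusted p = 0.11) and after median centring (-0.12).

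Most inhibitors, like the subunits, were higher at 3 h, the first hour sampled after LPS. At that hour 5 of the 6 were higher, at 6 h all 6, at 9 and 12 h 5 each, and none was lower at these hours. Among all genes 4.47%, 26.0%, 36.6% and 30.9% were higher at 3, 6, 9 and 12 h, and 2.57%, 29.3%, 28.4% and 22.2% were lower. NFKBIA, which encodes IkappaBalpha, had 7.25, 7.81 and 8.48 at -22 h and 12.14, 12.01, 12.04 and 12.00 in cows 1, 3, 7 and 8 at 3 h. The 4 cows lay close together there, far above the earlier range. At 6 h they had 10.77, 11.33, 11.11 and 10.93, at 9 h the 8 cows had 8.87, 9.84 and 10.26, and at 12 h the 4 cows had 8.77, 8.99, 10.01 and 8.05. The mean of NFKBIA was lower at each hour after the first, and at 12 h its values overlapped the range before LPS. The change was 4.22 at 3 h (SE 0.29, adjusted p = 3.9e-12), the largest of any member at that hour, 3.20 at 6 h (SE 0.29, adjusted p = 8.4e-11), 1.91 at 9 h (SE 0.24, adjusted p = 2.9e-08) and 1.13 at 12 h (SE 0.29, adjusted p = 0.0019). Without cow 7 that at 12 h was 0.69 (adjusted p = 0.081). Values of 6.84, 7.47 and 8.20 at 48 h gave a change of -0.32 (SE 0.24, adjusted p = 0.31).

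NFKBIE, which encodes IkappaBepsilon and is named here after its values were seen, had a shorter rise. It lay near the lower end before LPS, at 2.85, 2.97 and 3.19. Cows 1, 3, 7 and 8 had 6.19, 6.29, 6.40 and 6.05 at 3 h, and 3.45, 6.15, 5.15 and 4.15 at 6 h. The cows were alike at 3 h and had spread by 6 h, although all 4 were still above the earlier range. At 9 h the 8 cows had 2.58, 3.31 and 3.93, and at 12 h the 4 cows had 3.89, 4.96, 4.54 and 2.92. The change was at least 3.27 at 3 h (SE 0.32, adjusted p = 6.9e-09) and at least 1.75 at 6 h (SE 0.32, adjusted p = 2.9e-05), then 0.39 at 9 h (SE 0.26, adjusted p = 0.19) and 1.11 at 12 h (SE 0.32, adjusted p = 0.0051), a call lost in the 4 cows that have all hours (adjusted p = 0.056). The other 3 probe sets of the gene were higher at 3 h, by 1.12 to 2.29. At 6 h they changed by 0.29 to 0.58, with 1 of the 3 called higher, and at 12 h none of them was called. At 48 h NFKBIE was at 2.21, 2.52 and 3.00.

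BCL3, an atypical IkappaB that acts in the nucleus, combined the early rise with a longer one. It had 4.11, 4.23 and 5.83 at -22 h, where the highest is cow 1. At 3 h cows 1, 3, 7 and 8 had 8.66, 8.53, 8.21 and 7.87, at 6 h 8.95, 9.10, 8.91 and 8.59, and at 12 h 6.60, 6.93, 7.24 and 6.66. The 8 cows at 9 h had 7.44, 7.68 and 7.94. No cow overlapped the range before LPS from 3 to 12 h. The change was 3.80 at 3 h (SE 0.26, adjusted p = 3.1e-12), 4.37 at 6 h (SE 0.26, adjusted p = 6.6e-15), 3.15 at 9 h (SE 0.21, adjusted p = 2.9e-14) and 2.35 at 12 h (SE 0.26, adjusted p = 4.5e-09). By 48 h the range was 4.15 to 5.68 with a median of 4.80, and the change was 0.27 (SE 0.21, adjusted p = 0.32).

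NFKBIB, which encodes IkappaBbeta, had its largest change later than NFKBIA, at 6 h. It had 5.63, 6.22 and 6.66 at -22 h, and 7.44, 7.01, 7.55 and 7.20 in cows 1, 3, 7 and 8 at 3 h. These cows had 9.26, 9.57, 9.53 and 9.42 at 6 h and 8.00, 8.65, 8.50 and 7.96 at 12 h, and the 8 cows had 8.87, 9.24 and 9.78 at 9 h. All lay above the range before LPS. The change was 1.18 at 3 h (SE 0.22, adjusted p = 0.00038), 3.32 at 6 h (SE 0.22, adjusted p = 4.4e-14), 3.15 at 9 h (SE 0.18, adjusted p = 3.0e-16) and 2.15 at 12 h (SE 0.22, adjusted p = 5.5e-10). At 48 h the values were 5.17, 5.94 and 6.38, a change of -0.28 (SE 0.18, adjusted p = 0.22). The other probe set of NFKBIB gave another course, with a change of 1.90 at 6 h but 0.29 at 3 h, -0.02 at 9 h and 0.22 at 12 h, of which the first was called, so the duration of the rise depends on the probe set.

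TOLLIP and TNIP1 act on the signal rather than on NF-kappaB itself. TOLLIP, which binds the IRAK kinases and dampens them, had 10.44, 10.73 and 11.24 at -22 h and 11.29, 11.30, 11.10 and 11.00 in cows 1, 3, 7 and 8 at 3 h. At 6 h it stood at 11.96, 12.27, 12.16 and 12.05, at 9 h at 12.19, 12.57 and 13.07 over the 8 cows, and at 12 h at 12.32, 12.56, 12.77 and 12.13. From 6 to 12 h every cow was above the range before LPS. The change was 0.41 at 3 h (SE 0.14, adjusted p = 0.088), 1.35 at 6 h (SE 0.14, adjusted p = 1.7e-09), 1.83 at 9 h (SE 0.12, adjusted p = 5.9e-15) and 1.68 at 12 h (SE 0.14, adjusted p = 1.2e-11). By 48 h TOLLIP had 10.12, 10.48 and 10.82, a change of -0.30 (SE 0.12, adjusted p = 0.051) that was called with the cow as a block. TNIP1, a partner of the ubiquitin-editing enzyme TNFAIP3, changed by 1.14 at 3 h (SE 0.23, adjusted p = 0.0010), 1.64 at 6 h (SE 0.23, adjusted p = 3.0e-07) and 0.60 at 9 h (SE 0.19, adjusted p = 0.0071), of which the last was lost in the 4 cows that have all hours (0.41, adjusted p = 0.24). At 12 h it was at -0.46 (SE 0.23, adjusted p = 0.11), and at -0.81 without cow 7 (adjusted p = 0.0033).

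**Figure D4:**
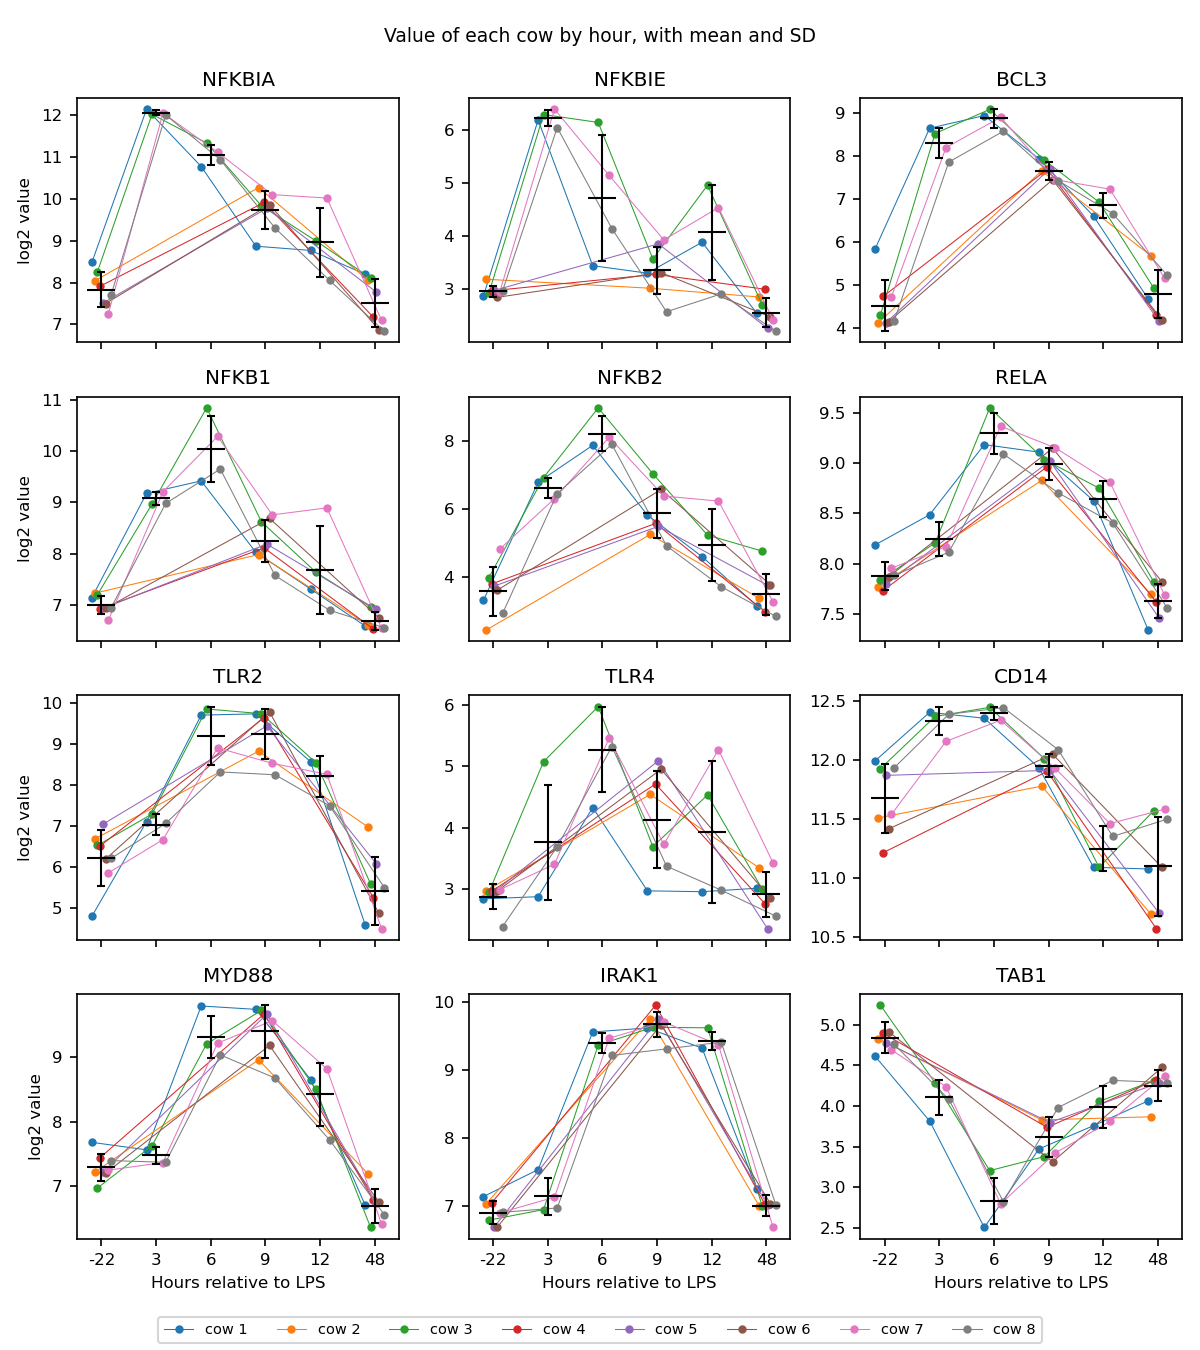
Log2 value (y axis) of 12 members of the cascade at each hour relative to LPS (x axis), with 1 coloured line per cow and the mean and SD over cows in black. NFKBIA and NFKBIE are highest at 3 h, the subunits at 6 h and TLR2 and MYD88 at 6 and 9 h, while TAB1 is lowest at 6 h.

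The order of the rises was also read from successive hours. Of the 27 members with a call against -22 h at 3 to 12 h, NFKBIA and NFKBIE had their largest change at 3 h, 13 at 6 h (12 higher, and TAB1 lower), 10 at 9 h (9 higher, and TLR6 lower) and 2 at 12 h. From 3 to 6 h 16 members rose and 4 fell, against 28.7% and 25.2% of all genes. NFKBIA fell by 1.01 on the log2 scale (SE 0.34, adjusted p = 0.016) and NFKBIE by 1.51 (SE 0.37, adjusted p = 0.0016) in that interval. NFKB1 rose by 0.97 (SE 0.29, adjusted p = 0.0078), NFKB2 by 1.60 (SE 0.48, adjusted p = 0.0083) and RELA by 1.06 (SE 0.12, adjusted p = 1.0e-08). The other roles were mixed in this interval. Of the adaptors and kinases 8 of 15 rose and 2 fell (median 0.36), of the receptors 3 of 7 rose (median 0.07) and of the inhibitors 2 of 6 rose and 2 fell (median 0.54), against a median of 1.06 for the subunits, and the difference between roles was not tested. The largest rises were those of RIPK1 by 2.31 (SE 0.24), IRAK1 by 2.26 (SE 0.12), TLR2 by 2.16 (SE 0.46), NFKBIB by 2.14 (SE 0.25) and MYD88 by 1.83 (SE 0.22). From 6 to 9 h 4 members rose and 10 fell, against 19.8% and 13.4% of all genes, and the 10 include all 3 subunits, with -2.34 for NFKB2 (SE 0.42) and -1.81 for NFKB1 (SE 0.25), and 4 of the 6 inhibitors. MYD88, IRAK1, RIPK1 and TLR2 did not pass the test in that interval, with changes of 0.09 (SE 0.19), 0.27 (SE 0.11), -0.38 (SE 0.21) and 0.05 (SE 0.40). From 9 to 12 h 1 rose, IKBKG, and 10 fell, against 16.3% and 10.5% of all genes. From 12 to 48 h 1 rose, TLR6 with 0.73 (SE 0.18), and 22 fell, against 19.8% and 32.4%.

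At 48 h the members lay slightly below their level at -22 h. The median log2 change was -0.26, against 0.00 over all genes. TLR5 was called higher and 9 members lower, against 15.0% higher and 16.2% lower among all genes. The 9 were CD14, MYD88, RIPK2 (-0.53, SE 0.12), TRAF6 (-0.33, SE 0.11), CHUK (-0.42, SE 0.08), TAB1, TAB2 (-0.37, SE 0.11), RELA and TNIP1 (-0.49, SE 0.19). None of the 9 reached a change of 2-fold. With an average over each gene's probe sets, the calls of CD14, TAB2, TRAF6 and TNIP1 were lost. No other probe set of these genes was called at this hour. Each array was also centred on the median of its brighter probe sets only, those averaging 5 or more on the log2 scale. This centring shifts the comparison of 48 h with -22 h upward by 0.13 for all probe sets. After it, 5 members were higher and 6 lower, with the calls of RELA, TRAF6 and TNIP1 lost. In the 4 cows that have all hours 3 of the 9 remained lower (CD14, RIPK2 and CHUK), and with the methods' Bonferroni threshold of 0.01 none did. Leaving out the arrays that stood apart, cow 1 at -22 h or cow 2 at 48 h, left 0 members higher, and the calls of TRAF6 and TNIP1 were lost in 5 and 7 settings without a cow or an array.

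Several members were measured by more than 1 probe set. For these 12 genes, all probe sets gave the same call in 37 of the 60 pairs of a gene and an hour, and opposite calls in 0. IRAK1 had mean changes of 2.51 and 3.69 at 6 h and of 2.78 on each at 9 h, but its dimmer probe set divided the cows. At 9 h cows 2, 3 and 6 had 2.25, 2.29 and 2.26 on it, near the lower end as before LPS, while the other 5 had 5.62 to 7.26, and at 6 h cow 3 had 2.35. All cows rose on the brighter probe set. BCL3 rose on both, by 4.37 and 2.69 at 6 h, as did TRAF6, by 1.64 and 1.41. IRAK4 had the larger change on its dimmer probe set, 1.27 against 0.89 at 9 h, and so had TAB2, with 0.85 against 0.37. For TAB2 at 48 h the probe sets pointed apart, at -0.37 and 0.29, of which the first was called.

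**Figure D5:**
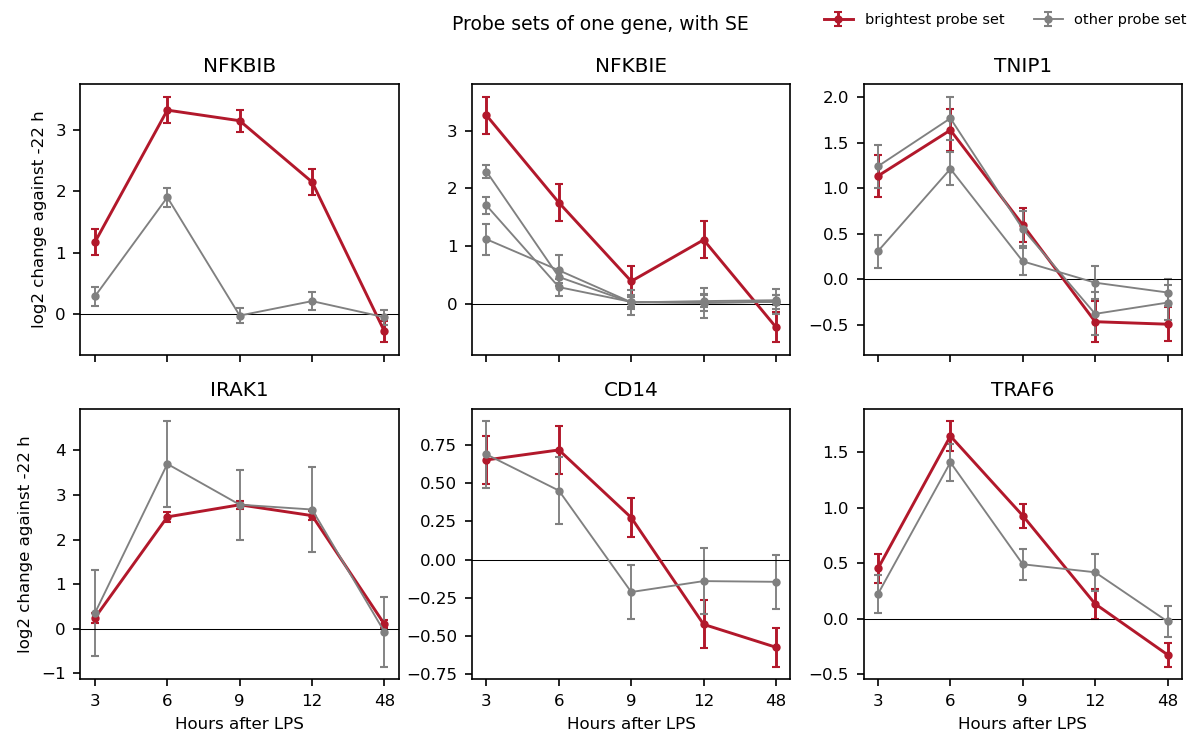
Log2 change against -22 h (y axis) at 3, 6, 9, 12 and 48 h (x axis) for 6 members with several probe sets, with the brightest in red, the others in grey and bars of 1 SE. The grey line of NFKBIB is back at the level before LPS at 9 h, where the red one stands at 3.15, and the lines of IRAK1 stand at 2.51 and 3.69 at 6 h and meet at 9 h.

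Other genes of the pathway, outside the 46, were listed for their role, and 37 of 52 were measured. At 3 h 7 were higher and 0 lower, 18.9% and 0% against 4.47% and 2.57% of all genes. The counts were 14 and 11 at 6 h (37.8% and 29.7%, against 26.0% and 29.3%), 18 and 8 at 9 h (48.6% and 21.6%, against 36.6% and 28.4%), 14 and 8 at 12 h (37.8% and 21.6%, against 30.9% and 22.2%), and 4 and 5 at 48 h (10.8% and 13.5%, against 15.0% and 16.2%). The shares lower at 6 and 12 h lay close to those of all genes. LBP, the plasma protein that delivers LPS to CD14, changed by 2.64 at 3 h (SE 0.46), 3.87 at 9 h (SE 0.38) and still 2.16 at 48 h (SE 0.38), in every cow. At 48 h CD14 was lower on its brighter probe set and was not called on the other. HSP90B1, the chaperone that folds Toll-like receptors, was at 1.93 at 9 h (SE 0.12) and 0.66 at 48 h (SE 0.12). UBE2N, the ubiquitin-conjugating enzyme that works with TRAF6, and FADD, an adaptor of death receptors, reached 2.63 (SE 0.18) and 2.02 (SE 0.30) at 12 h. MAP3K14 (NIK), the kinase that starts the processing of NFKB2, changed by 2.24 at 6 h (SE 0.29) and 2.26 at 12 h (SE 0.29). ZC3H12A, a ribonuclease that degrades inflammatory transcripts, had the largest change of this list, from a mean of 3.03 near the lower end of the scale: 3.12 at 3 h (SE 0.29), 4.60 at 6 h (SE 0.29) and 5.48 at 9 h (SE 0.24), and was at -0.08 at 48 h (SE 0.24). CYLD, a deubiquitinase, and the atypical IkappaB gene NFKBIZ, both named after their values were seen, were at 1.90 (SE 0.20) and 0.70 (SE 0.18) at 6 h. SIGIRR, a receptor that dampens TLR and IL-1 receptor signals, also named after its values were seen, was at -0.74 at 6 h (SE 0.13) and -1.32 at 9 h (SE 0.11).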

How the data were processed

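Liver RNA on 36 Affymetrix Bovine Genome Arrays was analysed from the table of log2 values that the authors deposited, made by them with GCRMA (background correction, quantile normalization and 1 value per probe set). The GCRMA version, and the annotation behind it, are not given in the sources used here. Genes came from the platform annotation, updated by gene ID (RefSeq table of ARS-UCD2.0): 13318 probe sets name 1 gene (13283 IDs matched), 86 several, and 10724 are not listed. All 24128 probe sets, 112 of them controls, entered 1 linear model per probe set (limma 3.58.1, run in R 4.3.3) that has a mean for each hour, no cow term and empirical Bayes variances. The methods of the study name linear models and empirical Bayes in limma and state nothing on a cow term. Their threshold, Bonferroni adjustment at 0.01 between successive hours, is an alternative. Scripts were tested on simulated data. Figures were drawn in Python 3.11.15 with matplotlib 3.10.9.

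Samples were grouped by hour, and cows numbered by the replicate number at -22 h. Numbers at other hours can name another animal, so arrays were paired by the cow identifier: deviations from the hourly means at -22 and 48 h correlated at 0.316 on average within a cow (0.116 to 0.505, over 0.1 in 8 of 8) and at -0.045 between cows. The members and lists were chosen with earlier results of these data known, and all p-values were adjusted over the whole table. Values per cow are given for TLR4, CD14, for TLR2, MYD88, RELA, NFKBIA and TOLLIP, which the study names, and for up to 3 members of each role with the largest change in the same direction in every cow, with TAB1 and NFKBIE added after their values were seen. Of the other pathway genes the 6 with the largest change are named, and of each marker list the gene with the highest signal at -22 h and the most changed. Alternatives were the cow as a fixed or random block, the 4 cows with all hours, each cow left out, array weights, median centring, the removal of dim probe sets (those not reaching 5 in at least 4 arrays), no controls, Bonferroni adjustment, a 2-fold minimum, an average over each gene's probe sets and another variance prior. Median centring took the median of each array over the brighter probe sets only, those averaging 5 or more on the log2 scale. Raw scans were not used here.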

Additional observations from a re-analysis of the deposited data

Results flagged for a closer look

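In 5 of the 96 sets of values of the named members by hour, 1 cow lay apart from the others by Dixon's criterion, which chance meets in about 1 in 20 sets. TLR4 at -22 h was 2.39 in cow 8 and 2.84 to 2.99 in the other 7, all near the lower end of the scale. CD14 at 3 h was 12.16 in cow 7 and 12.37 to 12.40 in the other cows. IRAK1 at 48 h was 6.68 in cow 7 and 6.99 to 7.25 in the others. BCL3 at -22 h was 5.83 in cow 1, whose array at that hour stood apart over all probe sets, and 4.11 to 4.73 in the others. NFKBIE at -22 h was 3.19 in cow 2 and 2.85 to 2.98 in the others.

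For 9 members the change against -22 h passed the threshold upward at 1 hour and downward at another, and the difference between these hours is given here as a description, since choosing the hours by those calls made it large. From 6 to 48 h CD14 differed by -1.29 (SE 0.16), RELA by -1.68 (SE 0.10), RIPK2 by -1.87 (SE 0.14), TNIP1 by -2.13 (SE 0.23) and TRAF6 by -1.97 (SE 0.13). From 9 to 48 h CHUK differed by -1.48 (SE 0.08), MYD88 by -2.71 (SE 0.16) and TAB2 by -0.75 (SE 0.11). IKBKG was the exception in order, lower at 6 h and higher at 12 h, with a difference of 0.59 (SE 0.11). The lower calls of RELA, TRAF6 and TNIP1 at 48 h did not hold after median centring.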

How the results depend on the processing

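The 1675 values of named members recomputed under the alternatives kept their direction where called (0 reversed). Of these, 1580 stayed on the same side of the threshold, 69 fell short of it and 26 newly passed it. Counts of members moved as follows, higher before lower. With Bonferroni adjustment at 0.01 they were 5 and 0 at 3 h, 1 lower at 6 h, 1 lower at 9 h, 9 and 0 at 12 h, and 0 and 0 at 48 h. Between successive hours they were 7 and 1 from 3 to 6 h, 0 and 1 from 6 to 9 h, 0 and 1 from 9 to 12 h, and 0 and 11 from 12 to 48 h. With a change of at least 2-fold they were 7 and 0 at 3 h, 1 lower at 6 h, 1 lower at 9 h, 12 and 0 at 12 h, and 0 and 0 at 48 h. These 2 alternatives are stricter by construction. Without dim probe sets, 26 of the 31 members were kept. Of these 0 were lower at 3 h, 1 was lower at 9 h and 0 were higher at 48 h. TAB1, the 1 member lower at 3 h, was among those left out as dim. At 48 h the count higher was 0 with the 4 cows that have all hours, 3 with array weights, 5 after median centring, 2 with an average over each gene's probe sets, and 0 without the array of cow 1 at -22 h or that of cow 2 at 48 h (both chosen after seeing the data). The count lower at 48 h was 3 with the 4 cows and 5 with the mean of probe sets. Median centring, also chosen after seeing the data for these, gave 5 higher from 12 to 48 h, and 8 higher and 3 lower of the other pathway genes at 48 h. The cause was not tested.

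The arrays are paired by cow. With the cow as a fixed replicate block, 2 members rose from 9 to 12 h instead of 1. It lost the calls of TRAF6 at 3 h and TRAF3 at 6 h and gained those of IRAK4 at 3 h, CD14 and TLR3 at 9 h, TAB2 at 12 h and TOLLIP and TLR2 at 48 h. The random block (consensus correlation 0.114) gained the same except TLR3, and RIPK2 at 3 h and TLR5 at 9 h, and lost none. With 1 cow left out at a time, members higher and lower numbered 9 to 11 and 1 to 1 at 3 h, 20 to 21 and 2 to 3 at 6 h, 20 to 23 and 2 to 2 at 9 h, 16 to 19 and 2 to 4 at 12 h, and 0 to 2 and 5 to 11 at 48 h, with 5 lower at 48 h without cow 1. From 9 to 12 h 1 to 2 rose, and of the other pathway genes 5 to 8 were lower at 12 h and 3 to 7 at 48 h. Signal limits TLR5, TLR9, TRAF3 and IKBKE, whose values stay near the lower end of the scale.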
